A study of Solanum dulcamara with 18 samples.

Results

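Among the assembled leaf transcripts of Solanum dulcamara, 206 contigs were higher under both flooding and drought than under control watering, with caterpillars and without them, while feeding itself moved them little on average. They were picked from 24158 contigs by a rule on CPM, the read count of a contig over the total of its library, scaled so that each library sums to the same total. For each contig the mean of log2(CPM + 1) was taken over the 3 libraries of a group, and flooding minus control and drought minus control were formed within infested and within uninfested plants. A member had at least 0.6 in all 4 of these water differences, a mean of at least 2 CPM over the 18 libraries, and an infested minus uninfested difference, averaged over the 3 water treatments, between -0.5 and 0.5. Of 17096 contigs with at least 2 CPM, 310 met the water bounds, of which 68 lay above and 36 below the herbivory bounds. The same rule with its signs turned gave 256 contigs. Because these values chose the members, the 4 water differences and the averaged herbivory difference are given below as descriptions only.

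Flooding and drought are opposite states of the soil, but both disturb the water relations, gas exchange and hormone balance of the shoot. Drought is known to raise abscisic acid, which closes stomata and switches on protective genes. Flooding cuts the oxygen supply of roots, traps ethylene and also tends to close stomata, and leaf responses shared by both stresses are therefore of interest in plants from habitats of changing water level. Chewing caterpillars set off a largely separate program, driven by jasmonate, which in nightshades includes protease inhibitors and other defences. The contigs carry IDs and lengths but no gene names: 0 of the 24158 IDs occurred in the RefSeq gene table, so none can be placed in these pathways, no sequence or genome position is given, and the tissue could not be checked against leaf markers.

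Solanum dulcamara, bittersweet nightshade, is a wild woody relative of tomato and potato, and the samples were leaves of greenhouse plants. Plants were flooded, droughted or watered normally for 5 days and kept so for 2 more, with or without 48 h of feeding by larvae of Spodoptera exigua (the beet armyworm, BAW in the labels). The 6 groups of 3 libraries were infested flooding, infested drought, infested control, uninfested flooding, uninfested drought and uninfested control plants. The series asks how water stress alters the leaf response to the herbivore, and its design calls the 3 libraries of a group biological replicates. Library totals ran from 6717218 to 16056241 reads. No genotype or strain is given in the labels, and the column numbers fall into separate blocks for infested and uninfested libraries, so any handling in those blocks and herbivory cannot be told apart.

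The typical member was about 2-fold higher in stressed than in control leaves. The median water difference was 1.19 under flooding and 0.93 under drought in infested plants, and 1.09 under flooding and 1.28 under drought in uninfested plants, on the log2(CPM + 1) scale. As folds these medians are 2.28, 1.90, 2.13 and 2.43. All contigs of at least 2 CPM were shifted upward too on this scale, with medians of 0.12 and 0.07 under flooding and drought in infested plants and 0.12 and 0.13 in uninfested plants. With libraries scaled by TMM, which brings the 4 medians of all contigs to between -0.0047 and 0.022, the members' medians were 1.10 and 0.88 in infested and 0.97 and 1.17 in uninfested plants. The mean of the 4 differences was at least 2 in 11 members, between 1 and 2 in 126 and under 1 in 69, and 57 members reached 1 in each of the 4. In bulk leaf RNA, a change in the number of cells of a type and a change in RNA per cell cannot be told apart.

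Together the members took up about 2% of the reads in stressed leaves and less than 1% in most unstressed leaves. Their share was 2.04, 2.79 and 1.88% in infested flooding plants and 1.65, 1.48 and 1.73% in infested drought plants, against 0.875, 1.12 and 0.676% in infested control plants. Uninfested flooding plants had 2.33, 2.03 and 2.01% and uninfested drought plants 2.41, 2.13 and 1.73%, against 0.798, 0.91 and 0.883% in uninfested control plants. Every stressed library lay above every control library in this share. The 10 members with most reads held 47.9% of the member reads. Level entered the rule through its minimum and its pseudocount, so the levels are a description. Their median level was 14.9 CPM per kilobase, against 14.6 over all contigs of at least 2 CPM, and their median length was 1146 bases (517 to 9166), against 1342 bases. Members varied more among the replicates of a group: the within-group SD of log2(CPM + 1), averaged over the 6 groups, had a median of 0.36 in members and 0.19 in all contigs of at least 2 CPM. A rule on group means of 3 libraries can favour contigs of wide spread, and its part in this difference was not tested.

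**Figure D1:**
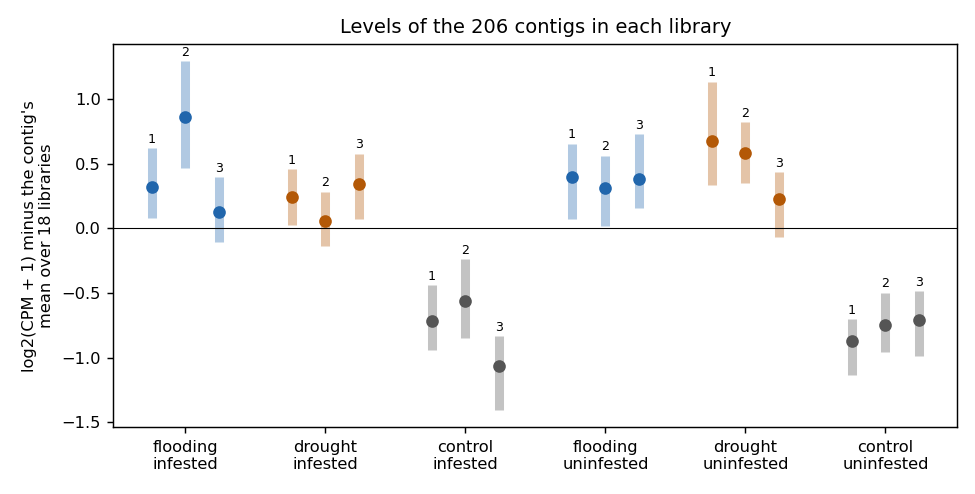
Levels of the 206 contigs in each of the 18 libraries, as log2(CPM + 1) minus the contig's own mean over the libraries. Points are medians over the contigs, bars span the lower to the upper quartile, and small digits are replicate numbers; all 12 flooding and drought libraries have medians above 0 and all 6 control libraries below it.

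The plot of levels by library shows the stressed libraries above the controls, but unevenly so. Averaged over members, the centred level was 0.50 ± 0.42 in infested flooding, 0.22 ± 0.15 in infested drought and -0.82 ± 0.30 in infested control plants (SD, n = 3 each). In uninfested plants it was 0.40 ± 0.08 under flooding, 0.53 ± 0.34 under drought and -0.83 ± 0.10 under control watering (SD, n = 3 each). Infested flooding replicate 2 was the highest library, at 0.97, and infested control replicate 3 the lowest, at -1.15. The widest spreads were thus in infested flooding, uninfested drought and infested control plants.

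At the level of single libraries the separation was complete for 100 members, in which all 12 stressed libraries lay above all 6 control libraries (percent of all 20170 tested contigs: 2.82). In 126 members the 3 stressed libraries lay above the 3 control libraries in each of the 4 comparisons (5.75% of all tested). In edgeR's quasi-likelihood test, adjusted over all 20170 tested contigs, the members called higher numbered 144 for infested flooding (6.7% of all tested), 72 for infested drought (1.87%), 130 for uninfested flooding (5.8%) and 143 for uninfested drought (5.75%), each against its control. Single comparisons gave 156 members with all 3 infested flooding libraries above the controls (23.1% of all tested), 159 for infested drought (17.5%), 193 for uninfested flooding (24.3%) and 181 for uninfested drought (25.9%). The rule chose on these comparisons, so the counts describe how even the replicates were and are no further support.

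The rule's bounds cut through a continuous range. The smallest of the 4 differences was 0.60024 in comp16698_c0_seq1 and 0.604 in comp3194_c0_seq1, just inside, and 0.599 in comp4829_c0_seq1 and 0.598 in comp14713_c0_seq1, just outside. It lay under 0.7 in 52 members, and 134 further contigs that met the other bounds lay between 0.5 and 0.6. At the upper herbivory bound, comp6130_c0_seq1 (0.443) and comp19036_c0_seq1 (0.436) were inside and comp8232_c0_seq1 (0.502) and comp20351_c0_seq1 (0.503) outside. At the lower bound, comp11750_c0_seq1 (-0.498) and comp15564_c0_seq1 (-0.490) were inside and comp5053_c0_seq1 (-0.510) and comp23740_c0_seq1 (-0.513) outside. At the level bound, comp17553_c0_seq1 (2.08 CPM) and comp22252_c0_seq1 (2.11 CPM) were inside and comp20530_c0_seq1 (1.73 CPM) and comp18402_c0_seq1 (1.52 CPM) outside.

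Membership also leaned on single libraries. With each of the 18 libraries left out in turn the rule gave between 154 and 231 contigs, and 81 of the 206 (39.3%) were members every time. The largest loss came without infested control replicate 3, when 146 of the 206 stayed, followed by infested flooding replicate 2, when 166 stayed. With TMM scaling the rule gave 159 contigs, 158 of them among the 206.

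The largest responses belonged to a pair of short contigs with low levels in unstressed leaves. comp14514_c0_seq1 (609 bases) had 59.7, 83.4 and 51.3 CPM in infested flooding and 24.8, 14.3 and 20.3 CPM in infested drought plants, against 3.58, 6.53 and 2.16 CPM in infested control plants. Without caterpillars it had 70.3, 57.6 and 63.6 CPM under flooding and 43.4, 27.8 and 16.2 CPM under drought, against 2.17, 2.80 and 3.24 CPM under control watering. All stressed libraries lay above all controls, and the mean of its 4 water differences, 3.22, was the largest among the 206. The second contig, comp14429_c0_seq1 (657 bases), had nearly the same profile and a mean difference of 3.22 as well. Its levels were 60.3, 73.6 and 45.6 CPM in infested flooding and 22.6, 12.1 and 20.3 CPM in infested drought plants, against 4.04, 5.00 and 2.06 CPM in infested control plants. Uninfested plants had 65.4, 57.6 and 60.3 CPM under flooding and 45.5, 23.7 and 12.5 CPM under drought, against 1.53, 2.43 and 3.37 CPM under control watering. The ratio of the first contig to the second stayed between 0.886 and 1.42 in the 18 libraries while the first moved over 4.74 log2 units. Whether both come from 1 transcript was not tested, since the tables hold no sequence.

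The other contigs with large mean differences had far wider spreads between replicates. comp9464_c0_seq1 (682 bases, mean difference 3.19) had 550, 2088 and 18.8 CPM in infested flooding and 22.5, 65.9 and 36.4 CPM in infested drought plants, against 26.2, 4.49 and 3.74 CPM in infested control plants. In uninfested plants it had 98.5, 64.5 and 502 CPM under flooding and 916, 46.8 and 24.6 CPM under drought, against 7.14, 33.4 and 18.2 CPM under control watering. Its infested flooding replicates spread from 18.8 to 2088 CPM, the stressed and control libraries overlapped, and it stayed a member in 9 of the 18 rounds that left out a library. comp3166_c0_seq1 (1264 bases, mean difference 2.46) had 158, 324 and 71.2 CPM in infested flooding and 92.1, 85.3 and 110 CPM in infested drought plants, against 28.7, 24.0 and 13.1 CPM in infested control plants. Under flooding without caterpillars it had 85.5, 66.8 and 140 CPM and under drought 521, 127 and 32.0 CPM, against 14.7, 18.2 and 26.8 CPM under control watering. Its 12 stressed libraries all lay above its 6 controls, by a narrow margin (32.0 against 28.7 CPM). Uninfested drought replicate 1 was the highest, at 521 CPM, followed by infested flooding replicate 2, at 324 CPM.

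comp21_c0_seq1 (946 bases, mean difference 2.90) was foremost a flooding contig. The contig had 739, 447 and 624 CPM in infested flooding and 73.5, 28.2 and 23.4 CPM in infested drought plants, against 3.12, 314 and 6.78 CPM in infested control plants. Uninfested flooding plants had 749, 320 and 436 CPM and uninfested drought plants 18.97, 54.7 and 58.1 CPM, against 3.95, 19.1 and 48.5 CPM in uninfested control plants. Uninfested drought and uninfested control libraries overlapped. The contig stayed a member in 14 of the 18 rounds that left out a library. Its mean difference was 2.31 without infested control replicate 1 and 3.87 without infested control replicate 2. Infested control replicate 2 stood far above the other controls. With that library in the arithmetic mean, edgeR's log2 fold change of infested drought over infested control plants was -1.42 ± 1.16 (SE), against the +0.80 of the rule's mean of logs. The only other member for which these disagreed in sign was comp2676_c0_seq1 (2716 bases, named after its values were seen). It had 18.6, 12.2 and 21.4 CPM in infested drought plants, against 2.19, 52.7 and 3.83 CPM in infested control plants, and edgeR's log2 fold change was -0.23 ± 0.77 (SE).

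**Figure D2:**
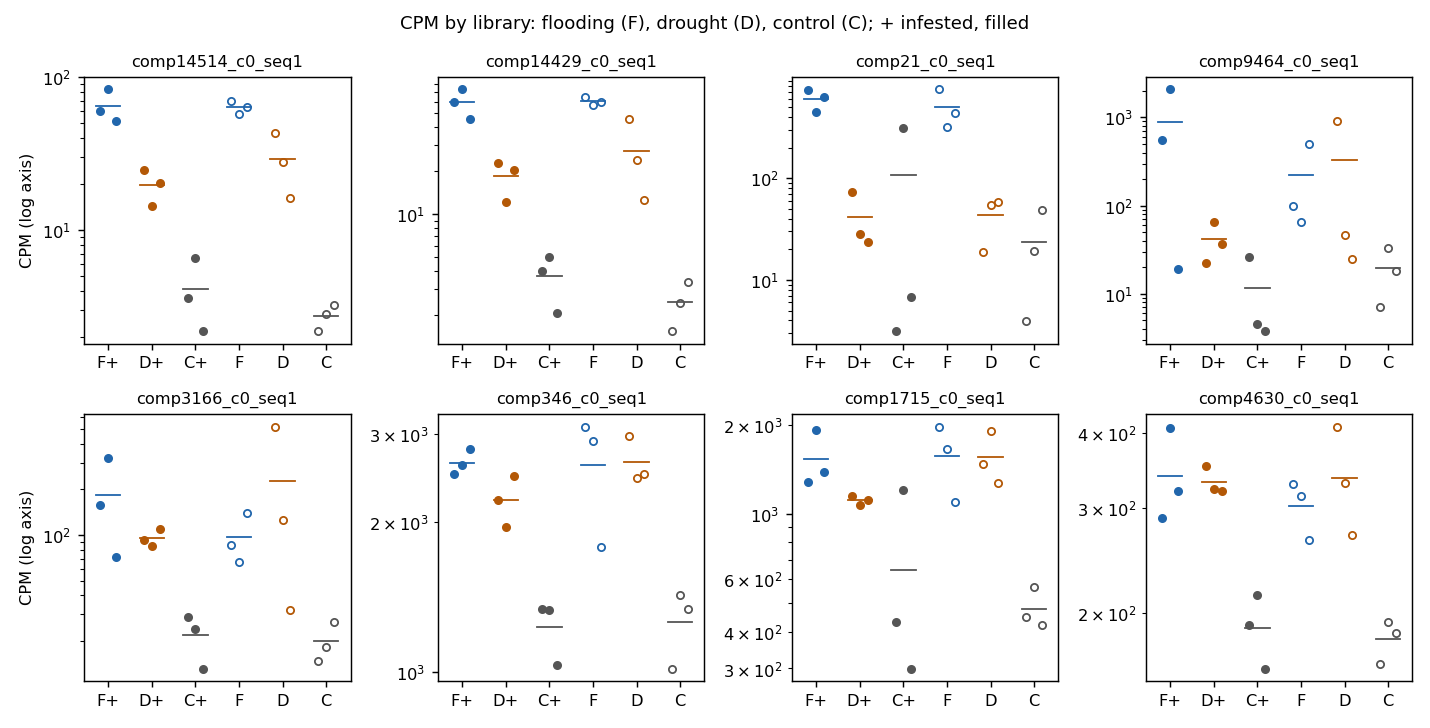
CPM of 8 of the 206 contigs in every library, on log axes, with infested flooding (F+), infested drought (D+), infested control (C+), uninfested flooding (F), uninfested drought (D) and uninfested control (C) plants from left to right. Points are libraries and lines are means of 3; comp14514_c0_seq1 and comp4630_c0_seq1 show no overlap between stressed and control libraries, whereas comp21_c0_seq1, comp9464_c0_seq1 and comp1715_c0_seq1 do.

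Per kilobase the most abundant member was comp346_c0_seq1 (1896 bases), with a mean of 1105 CPM per kilobase over the 18 libraries. It had 2495, 2598 and 2795 CPM in infested flooding and 2215, 1954 and 2470 CPM in infested drought plants, against 1334, 1329 and 1030 CPM in infested control plants. Without caterpillars it had 3104, 2901 and 1783 CPM under flooding and 2969, 2451 and 2491 CPM under drought, against 1014, 1427 and 1337 CPM under control watering. No stressed library reached down to a control, and the mean difference was 1.01. comp1715_c0_seq1 (1096 bases, 1047 CPM per kilobase) averaged 1527 ± 344 CPM in infested flooding, 1111 ± 38.5 CPM in infested drought and 645 ± 491 CPM in infested control plants (SD, n = 3 each). Uninfested plants averaged 1574 ± 445 CPM under flooding, 1552 ± 321 CPM under drought and 477 ± 77.6 CPM under control watering (SD, n = 3 each). Here too infested control replicate 2 stood high, at 1207 CPM against 430 and 299 CPM in the other two. comp33_c0_seq1 (582 bases, 385 CPM per kilobase) was a marginal case, with 290 ± 92.9, 206 ± 15.5 and 139 ± 43.5 CPM in infested flooding, drought and control plants and 266 ± 43.1, 282 ± 72.9 and 162 ± 46.3 CPM in uninfested ones (SD, n = 3 each). Its mean difference was 0.80, and its stressed and control libraries overlapped.

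Flooding and drought were compared with each other directly, a contrast that the rule did not name, although it bounded the same flooding and drought means from below. Its fold changes set flooding against drought libraries, while the spread behind its tests came from all 18 libraries, controls included. Averaged over infested and uninfested plants, edgeR called 11 members higher and 8 lower under flooding than under drought at an adjusted p under 0.05, or 9.22% of the 206. Of all tested contigs 4.39% were called higher and 6.51% lower, 10.9% in all. The split moved with single libraries. Without uninfested drought replicate 1 it was 15 higher and 3 lower (8.74% of members, 9.63% of all tested). Without infested flooding replicate 2 it was 10 higher and 18 lower (13.6% of members, 10.1% of all tested). In infested plants alone 2 members were called, both higher under flooding, or 0.971% of the 206, against 0.803% of all tested contigs (0.322% higher and 0.481% lower). In uninfested plants 3 were called higher and 5 lower, or 3.88%, against 7.68% of all tested (2.93% higher and 4.76% lower). In this fit of all groups the shares were close to or below the background. With only the groups compared in the fit they were above it in infested plants (2 members, 0.971%, and 13 of all tested, 0.0645%). They were also above it in uninfested plants (6.8 and 3.17%), but not in the averaged contrast (8.25 and 8.4%). Without infested control replicate 2 the infested shares were 3.4% of members and 0.848% of all tested, the highest member share of the 18 rounds. Without infested drought replicate 2 or 3 or infested flooding replicate 1 the member share was 0% (0.297, 0.0446 and 0.0843% of all tested). All 3 flooding libraries lay above the drought libraries in 26 members and below them in 3 in infested plants, against 12% and 8.77% of all tested contigs. In uninfested plants this was so in 17 and 34 members, against 11.6% and 11.9%. The median log2 fold change of members was 0.22 in infested and -0.13 in uninfested plants, with 0.01 over all tested contigs in both. These medians rested on single libraries, and were 0.024 without infested flooding replicate 2, and 0.0026 or -0.28 without uninfested drought replicate 1 or 3.

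Among the called members, comp21_c0_seq1 had by far the largest excess under flooding, a log2 fold change of 3.67 ± 0.88 over drought (SE, edgeR adjusted p = 0.0154). The values above show all 6 flooding libraries above all 6 drought libraries. comp14429_c0_seq1 and comp14514_c0_seq1 followed, at 1.41 ± 0.26 (adjusted p = 0.00318) and 1.40 ± 0.23 (adjusted p = 0.00141) in the same edgeR contrast. comp2983_c0_seq1 (1582 bases) had 27.7, 37.1 and 31.3 CPM in infested flooding, against 14.9, 13.3 and 14.8 CPM in infested drought plants. Its uninfested levels were 33.8, 41.4 and 48.9 CPM under flooding, against 13.8, 22.0 and 14.6 CPM under drought, and the groups did not overlap (1.21 ± 0.20, edgeR adjusted p = 0.00132). Control plants had lower means, at 9.91 ± 5.77 CPM infested and 9.29 ± 1.80 CPM uninfested (SD, n = 3 each).

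The abundant comp1260_c0_seq1 (1978 bases, 527 CPM per kilobase) had the smallest adjusted p of the 206 in this contrast. It had 1541, 1676 and 1493 CPM in infested flooding and 914, 625 and 878 CPM in infested drought plants, against 494, 426 and 422 CPM in infested control plants. Uninfested plants had 1903, 1727 and 1744 CPM under flooding and 1182, 1097 and 840 CPM under drought, against 558, 629 and 619 CPM under control watering. The 3 water treatments formed 3 separate levels in each insect treatment. Flooding exceeded drought by a log2 fold change of 0.86 ± 0.11 on average (SE, edgeR adjusted p = 0.000188), by 0.93 in infested plants (adjusted p = 0.0127) and by 0.79 in uninfested plants (adjusted p = 0.00528). It and comp14514_c0_seq1 were the only members called in both insect treatments, in tests that share 1 estimate of the spread. Both infested calls were lost with only the groups compared in the fit, and without infested drought replicate 2 or 3 or infested flooding replicate 1. Without uninfested control replicate 2 or infested flooding replicate 2, that of comp1260_c0_seq1 alone was left. The uninfested call of comp14514_c0_seq1 lay close to the threshold (edgeR adjusted p = 0.0448).

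Only a pair of contigs met the naming conditions in the other direction. comp11355_c0_seq1 (786 bases) had 18.8, 17.2 and 16.4 CPM in infested flooding, against 22.0, 21.4 and 33.4 CPM in infested drought plants. Uninfested plants had 21.9, 18.6 and 29.3 CPM under flooding, against 32.4, 42.4 and 37.3 CPM under drought. The averaged log2 fold change was -0.64 ± 0.14 (SE, edgeR adjusted p = 0.00825), and its controls were lower still, at 8.87 ± 2.88 CPM infested and 9.51 ± 0.837 CPM uninfested (SD, n = 3 each). comp2574_c0_seq1 (1473 bases) had 149, 178 and 171 CPM in infested flooding, against 236, 239 and 247 CPM in infested drought plants. Without caterpillars it had 238, 295 and 183 CPM under flooding, against 313, 334 and 295 CPM under drought (averaged log2 fold change -0.47 ± 0.13, edgeR adjusted p = 0.0293). Drought libraries lay above flooding libraries throughout, by a narrow margin in uninfested plants (lowest drought and highest flooding library both 295 CPM when rounded). This call was lost without any 1 of 6 libraries, with an adjusted p of at most 0.0728.

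**Figure D3:**
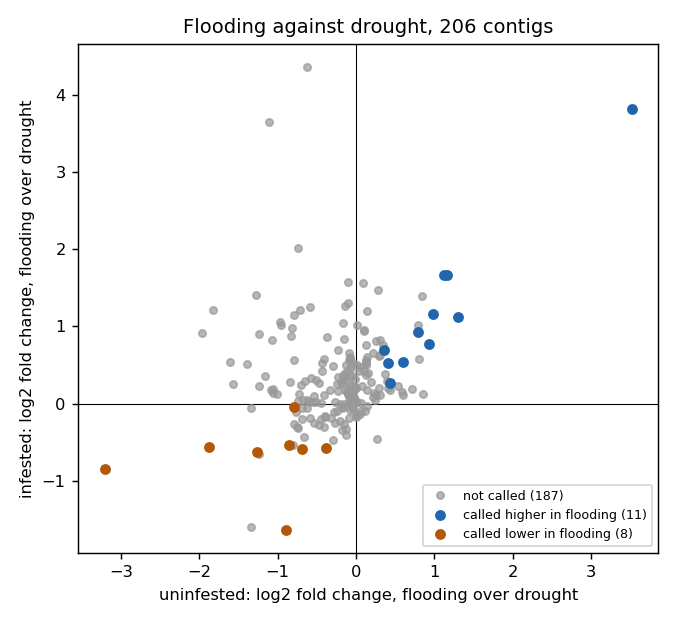
Log2 fold change of flooding over drought in infested (vertical) and uninfested (horizontal) plants for the 206 contigs, from edgeR. Blue points were called higher and brown points lower under flooding in the contrast averaged over insect treatments; 95 contigs lie in the upper left quadrant and 6 in the lower right.

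The plot of flooding against drought shows an uneven filling of its quadrants. Of the 206 contigs, 58 were higher and 47 lower under flooding in both insect treatments, 95 were higher in infested and lower in uninfested plants, and 6 the reverse. Over all 20170 tested contigs these numbers were 6362, 5877, 3965 and 3964. The rule bounded the same flooding and drought means, and the members' medians of these fold changes rested on single libraries, as given above. Pearson's r between the infested and uninfested log2 fold changes was 0.29 across members and 0.35 across all tested contigs, a description in which contigs are not independent. Contigs of the same library share its depth and scaling.

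The response to feeding was bounded directly only as an average, so it could still differ between water treatments. Such differences are also differences between the water differences, each of which the rule required to be at least 0.6. A contig whose water response fell below that bound in infested or uninfested plants could not be a member. Averaged over them, edgeR called 5 members higher and 10 lower in infested leaves (16% and 13.4% of all tested contigs, 29.4% in all), counts that the rule's bound itself keeps low. The infested minus uninfested difference had a median of 0.07 in flooding, -0.33 in drought and 0.01 in control plants. Over all contigs of at least 2 CPM these medians were -0.03, -0.07 and -0.02. With TMM scaling they were 0.10, -0.26 and 0.0095 in members and 0.0058, 0.0043 and -0.018 over all contigs. The uninfested drought libraries were uneven, with centred levels of 0.83, 0.61 and 0.16 averaged over members. In drought plants 179 members were lower in infested than in uninfested leaves and 27 higher, while flooding plants had 115 higher and 91 lower and control plants 105 higher and 101 lower. Over the 17096 contigs of at least 2 CPM, 63.1% were lower in infested leaves under drought, 53.6% under flooding and 52.6% under control watering. The drought difference was the lowest of the 3 in 152 members. It was below -0.5 in 49 members and above 0.5 in none, and 124 members stayed within these bounds under each of the 3 water treatments. All 3 infested libraries lay below the uninfested ones in 11 members under flooding, 33 under drought and 12 under control watering, against 16.7%, 15.2% and 17.4% of all tested contigs. They lay above in 8, 3 and 7 members, against 12.8%, 8.41% and 14.8%. The libraries of infested and uninfested plants overlapped under all 3 water treatments in 143 members (69.4%), against 45.7% of all tested contigs. The rule's bound on the averaged difference favours such overlap and keeps the counts of members without overlap low, so both are descriptions only.

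No single member passed the test for a difference between water treatments in its response to feeding. The rule bounded the water differences that make up these interactions, so the counts and medians below depend on the choice of members. In edgeR's interaction contrasts 0 of the 206 were called for flooding against drought (0.0198% of all tested), 0 for flooding against control and 0 for drought against control (0% of all tested in both), and DESeq2 called 0 of them as well (0.724, 0.0347 and 0.149% of all tested). At an unadjusted p under 0.05 there were 22, 3 and 8 members with edgeR (10.7, 1.46 and 3.88%), against 9.70, 3.74 and 6.45% of all tested contigs. DESeq2 gave 30, 3 and 12 members, but its share of all tested contigs at this unadjusted p was not counted, so these have no background. The median interaction of members was a log2 value of 0.41 for flooding minus drought, with 0.01 over all tested contigs, and it was 0.15 without infested flooding replicate 2 and 0.25 without uninfested drought replicate 1. For drought minus control it was -0.33, with 0.02 over all tested contigs, and it was -0.13 without uninfested drought replicate 1, -0.16 without infested control replicate 2 and -0.50 without infested control replicate 3. For flooding minus control it was 0.08 and changed sign without infested flooding replicate 2 (-0.13) or infested control replicate 3 (-0.04), and it was 0.25 without infested control replicate 2. On simulated counts this design found 39, 41 and 35% of 2-fold and 80, 84 and 81% of 4-fold interactions in the same 3 contrasts. The share found at the wider replicate spread of the members was not tested. The members' median within-group SD of log2(CPM + 1) was 0.36, against 0.19 in all contigs of at least 2 CPM.

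**Figure D4:**
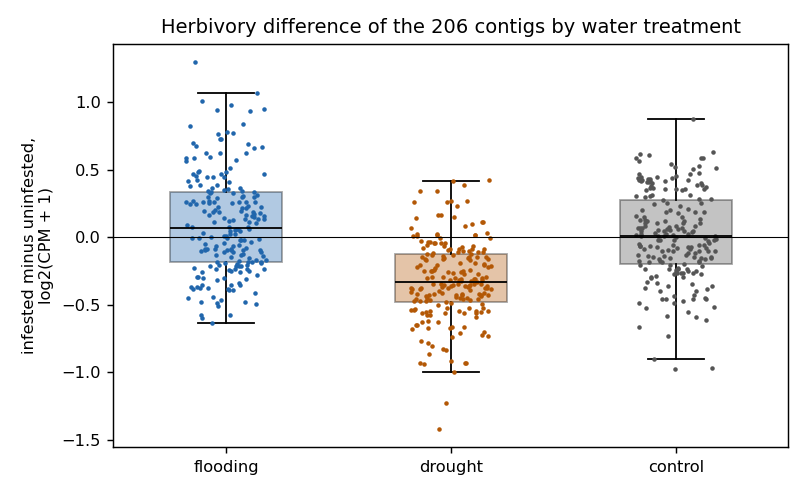
Infested minus uninfested difference in mean log2(CPM + 1) for each of the 206 contigs in flooding, drought and control plants. Points are contigs, boxes span the quartiles with the median as a line, and whiskers reach the farthest contig within 1.5 box lengths; the drought box lies below 0, with a median of -0.33.

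The member with the smallest interaction p in both contrasts that involve drought was comp496_c0_seq1 (712 bases). In drought plants it had 77.3, 78.9 and 79.5 CPM in infested leaves, against 127, 128 and 84.9 CPM in uninfested leaves. Flooding plants had 70.9, 86.2 and 77.9 CPM infested, against 72.8, 57.3 and 65.9 CPM uninfested, and control plants 36.2, 43.5 and 29.0 CPM infested, against 25.005, 30.1 and 33.3 CPM uninfested. The infested and uninfested libraries overlapped except in drought plants, where infested leaves were lower. Its interaction was 0.75 ± 0.22 for flooding minus drought (SE, edgeR adjusted p = 0.298) and -0.75 ± 0.22 for drought minus control (adjusted p = 0.633). For flooding minus control the smallest p was that of comp15316_c0_seq1 (1606 bases), with 0.67 ± 0.23 (edgeR adjusted p = 0.99994). It averaged 20.1 ± 1.36 CPM in infested and 17.1 ± 2.75 CPM in uninfested flooding plants, and 6.06 ± 1.36 CPM in infested and 7.98 ± 0.972 CPM in uninfested control plants (SD, n = 3 each).

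Some members hardly moved with feeding under any water treatment. comp4630_c0_seq1 (1800 bases) had infested minus uninfested differences of at most 0.154 in size. It had 289, 408 and 320 CPM in infested flooding and 353, 323 and 321 CPM in infested drought plants, against 191, 214 and 162 CPM in infested control plants. Uninfested levels were 328, 314 and 265 CPM under flooding and 411, 331 and 271 CPM under drought, against 164, 194 and 186 CPM under control watering. Infested and uninfested libraries overlapped under each water treatment, while the stressed libraries lay above all controls. comp1540_c0_seq1 (1935 bases), with differences of at most 0.157 in size, averaged 333 ± 49.2, 348 ± 49.1 and 216 ± 60.7 CPM in infested flooding, drought and control plants and 375 ± 76.1, 362 ± 42.5 and 210 ± 30.1 CPM in uninfested ones (SD, n = 3 each).

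At the other end stood comp9464_c0_seq1 and comp13011_c0_seq1 (647 bases), whose 3 herbivory differences spanned 2.35 and 2.23 log2 units. comp13011_c0_seq1 had 39.3, 137 and 5.69 CPM in infested flooding and 3.86, 7.34 and 2.82 CPM in infested drought plants, against 1.62, 1.43 and 1.08 CPM in infested control plants. In uninfested plants it had 7.48, 10.3 and 25.2 CPM under flooding and 83.1, 6.86 and 0.636 CPM under drought, against 1.79, 4.11 and 1.95 CPM under control watering. Both contigs were highest in infested flooding replicate 2 and uninfested drought replicate 1, and their edgeR interactions for flooding minus drought, 4.98 ± 2.04 and 4.76 ± 1.68 (SE), had adjusted p of 0.474 and 0.422.

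That ranking of libraries was common among the members. Infested flooding replicate 2 was the highest of its group in 160 members (77.7%), against 39.5% of all tested contigs, and uninfested drought replicate 1 in 114 (55.3%), against 31.6%. Both held in 97 members (47.1%), against 16.3% of all tested contigs. Infested control replicate 3 was the lowest of its group in 143 members (69.4%), against 43.4%, uninfested drought replicate 3 in 142 (68.9%), against 30.0%, and infested drought replicate 2 in 126 (61.2%), against 38.5%. In uninfested flooding plants replicate 3 was most often the highest, in 86 members (41.7%), against 45.7% of all tested contigs. Uninfested control replicate 3 was so in 81 members (39.3%), against 47.7%. Uninfested flooding replicate 1 (36.9%, against 29.5%) and uninfested control replicate 2 (37.4%, against 26%) lay above their shares over all tested contigs. Uninfested flooding replicate 2 was the lowest of its group in 44.7% of members, against 47.1% of all tested contigs. For uninfested control replicate 1 this was 51.9%, against 46.6%. The group-mean rule did not use the order of replicates within a group, although a library that is high in a stressed group or low in a control group helps a contig to pass it. Infested flooding replicate 2 had 8963650 reads, between the 6717218 and 14063255 reads of the other replicates of its group. The part of depth in these orders was not tested.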

How the data were processed

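Both deposited tables held leaf RNA-seq of 18 samples. Groups and replicate numbers came from the sample titles, and columns were tied to samples by the column numbers in the labels. The first held raw read counts per assembled contig as deposited by the authors (24158 contigs). The second held a deposited normalized signal, which on the values equals the count times 1 factor per library, per kilobase, for 22410 contigs, 205 of the 206 members among them. The submitters' processing notes list Bowtie 0.12.7 and DESeq without a role. How contigs were assembled and reads counted, and whether strand was used, is not given in the sources used here, so reads of near-identical or antisense contigs may be divided or merged.

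The members, their rule and the tests were chosen with earlier results of these data known. Counts were tested with edgeR 4.0.16 in R 4.3.3 (filterByExpr with a minimum count of 10 and total of 15, TMM scaling, 1 robust quasi-likelihood fit of 6 group means, 12 residual degrees of freedom). The fit covered 20170 contigs, all 206 members included; p-values were adjusted by Benjamini-Hochberg over all of them, and called means an adjusted p under 0.05. The SE of a log2 fold change is its size over the square root of F. CPM in the text uses library totals. Contigs were named by rule: the 5 largest mean differences, the 4 highest CPM per kilobase, the largest called flooding minus drought differences without overlap in both insect treatments (up to 4 each way), the smallest interaction p, the 2 steadiest and 2 most variable under herbivory, and the neighbours of each bound; a mean of at least 8 CPM was required for the largest, called, steadiest and most variable contigs. DESeq2 1.42.0 and limma 3.58.1 served as alternatives. The edgeR script was tested on simulated counts.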

Additional observations from a re-analysis of the deposited data

How the results depend on the processing

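The count of members stayed within 1.5 times 206 under each planned setting: 159 with TMM or DESeq2 scaling, 245 and 177 with a pseudocount of 0.5 and 2, 169 with a minimum of 5 CPM, and 154 to 231 without 1 library. An alternative chosen after seeing the data, leaving out infested flooding replicate 2 and infested control replicate 3 together, gave 128, of which 116 were among the 206. For flooding minus drought in uninfested plants the 8 called members became 16 with DESeq2 and 14 with only the groups compared (4 of the 8 among them), where 10.5 and 3.17% of all tested contigs were called, and 3 to 15 without 1 library (5 without uninfested drought replicate 1 or 2, 3 without uninfested flooding replicate 1 or 2, 13 without infested control replicate 2, 15 without infested flooding replicate 2). In infested plants the 2 became 10 with DESeq2, remained 2 in number with only the groups compared (0 of the first 2 among them), where 3.2 and 0.0645% of all tested were called, and ranged from 0 to 7 without 1 library (0 without infested drought replicate 2 or 3 or infested flooding replicate 1, 1 without uninfested control replicate 2 or infested flooding replicate 2, 6 without infested flooding replicate 3, 7 without infested control replicate 2). Averaged over insect treatments the 19 stayed between 13 and 28 without 1 library. The 28, with 18 of them lower under flooding, came without infested flooding replicate 2 (13.6% of members, 10.1% of all tested). Rounds with 13 had 6.31% of members, against 7.97 to 9.23% of all tested. Without 1 library, the uninfested extremes of 3 and 15 were 1.46 and 7.28% of members. All tested contigs had 3.88 or 4.15% and 8.3% called in those rounds. The infested extremes of 0 and 7 were 0 and 3.4% of members, against 0.0446 to 0.297% and 0.848% of all tested. The 3 interactions called 0 members under every setting run. The averaged flooding minus drought calls of comp21_c0_seq1, comp14429_c0_seq1, comp14514_c0_seq1, comp2983_c0_seq1 and comp11355_c0_seq1 held in all 26 alternatives, and that of comp2574_c0_seq1 in 20; no called direction turned. The cause of these shifts was not tested. Whether replicate numbers pair the libraries was not settled. Same-numbered libraries of different groups had correlations of deviations between -0.32 and 0.39 (median 0.01). Other-numbered libraries of different groups had correlations between -0.35 and 0.26 (median 0.0007), and 9 of 18 libraries correlated best with their own number. A replicate block gave 9, 2 and 21 called members for uninfested, infested and averaged flooding minus drought, and 0 for each interaction. For flooding minus drought these were 4.37, 0.971 and 10.2% of members, against 7.05, 0.764 and 10.3% of all tested contigs. Depth limits the low members, for which a few CPM are few reads.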
